A study of Mus musculus with 8 samples.

Results

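The genes described here are the expressed members of the mouse Zfp family, protein-coding genes whose symbol is Zfp followed by a number. They were chosen by their measured level: a gene entered when it reached 1 FPKM (fragment numbers divided by transcript length and by the library's total) in at least 4 of the 8 libraries, and Zfp36, whose zinc fingers are of another kind, was left out. Of 364 such genes, 135 entered, out of 55335 gene identifiers in the deposited table. The other 229 lay below the threshold, and 45 of those were at 0 in every library. Because levels chose the genes, their levels are a description and carry no test; the comparison between TABS and HA/Mg did not enter the rule.

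The libraries came from RAW264.7, a mouse macrophage-like cell line. The first group was cultured for 3 days with TABS (4 libraries, replicates 5 to 8), and the second for 3 days with HA/Mg scaffolds (4 libraries, replicates 5 to 8); the labels do not spell out the name TABS. RNA was measured by 150-base paired-end sequencing. All libraries are of 1 cell line, no cells cultured without either material were analysed here, and nothing in the labels ties the replicates to separate cultures, so that p-values rest on the spread among these libraries, perhaps a technical one. The table names its libraries with the letters H and L, given in the descriptions of the TABS and HA/Mg samples; an exchange of these letters would reverse every direction given here.

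In a C2H2 zinc finger a pair of cysteines and a pair of histidines hold a zinc ion, and fingers in a row read consecutive short stretches of DNA. Many family members also carry a KRAB box, which recruits the corepressor Trim28; Trim28 brings in the histone methyltransferase Setdb1 and HP1 proteins, and the resulting heterochromatin silences retrotransposons and some imprinted loci. Members without a KRAB box include DNA-binding regulators and proteins that bind RNA or act on ribosomes.

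The finger unit is shown for 4 called members, to let a reader see how far base composition can differ within the shared motif: Zfp239 was higher with TABS, and Zfp689, Zfp984 and Zfp958 were lower. Only 1 finger of each is printed, so the GC content of their other fingers is not given. Each line is 1 finger with its linker from the coding exon on GRCm38 (GENCODE M21), read 5′ to 3′ on the gene's strand, and the capitals are the codons of the zinc-binding cysteines and histidines. The stretches lie at chr6:117871324-117871407 (+) for Zfp239, chr7:127444755-127444838 (-) for Zfp689, chr4:147755508-147755591 (-) for Zfp984 and chr8:4628541-4628624 (+) for Zfp958.
Zfp239: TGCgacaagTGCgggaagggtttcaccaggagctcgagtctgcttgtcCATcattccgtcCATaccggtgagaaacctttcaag
Zfp689: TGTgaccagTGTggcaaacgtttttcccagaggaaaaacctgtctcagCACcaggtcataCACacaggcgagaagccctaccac
Zfp984: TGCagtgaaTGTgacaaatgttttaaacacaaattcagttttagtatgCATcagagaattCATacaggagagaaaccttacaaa
Zfp958: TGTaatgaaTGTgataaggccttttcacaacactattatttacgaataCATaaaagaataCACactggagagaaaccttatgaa
All 4 stretches hold 84 bases with the 4 capital codons at the same places. Their GC content was 53.6% in Zfp239 and 52.4% in Zfp689, but 32.1% in Zfp984 and 31.0% in Zfp958. The pair with the lower GC content, Zfp984 and Zfp958, was also the most alike, with 57 of 84 bases identical, and the other 5 pairs shared 42 to 49 bases.

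Over the 135 genes, the mean level of 8 libraries ran between 0.860 FPKM (Zfp84) and 32.2 FPKM (Zfp346), with a median of 2.51 FPKM, against a median of 7.74 FPKM for all 10161 genes that met the same threshold. Most expressed Zfp genes were thus scarce transcripts: 52 averaged under 2 FPKM, 53 averaged 2 to 5, 21 averaged 5 to 10 and 9 averaged 10 or more. A pattern search of the annotated proteins found at least 1 C2H2 finger in 132 of the 135, with a median of 9 and a maximum of 41 in Zfp142. The pattern also accepted a cysteine for the last histidine. The 3 without a match were Zfp330, Zfp703 and Zfp839. A KRAB-like box was found in 45 of the 135 genes, and in 160 of the 229 below the threshold. These 45 were lower in level (median 1.97 FPKM) than the 90 without the box (median 2.90 FPKM), and none of the 45 averaged above 6.23 FPKM.

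**Figure D1:**
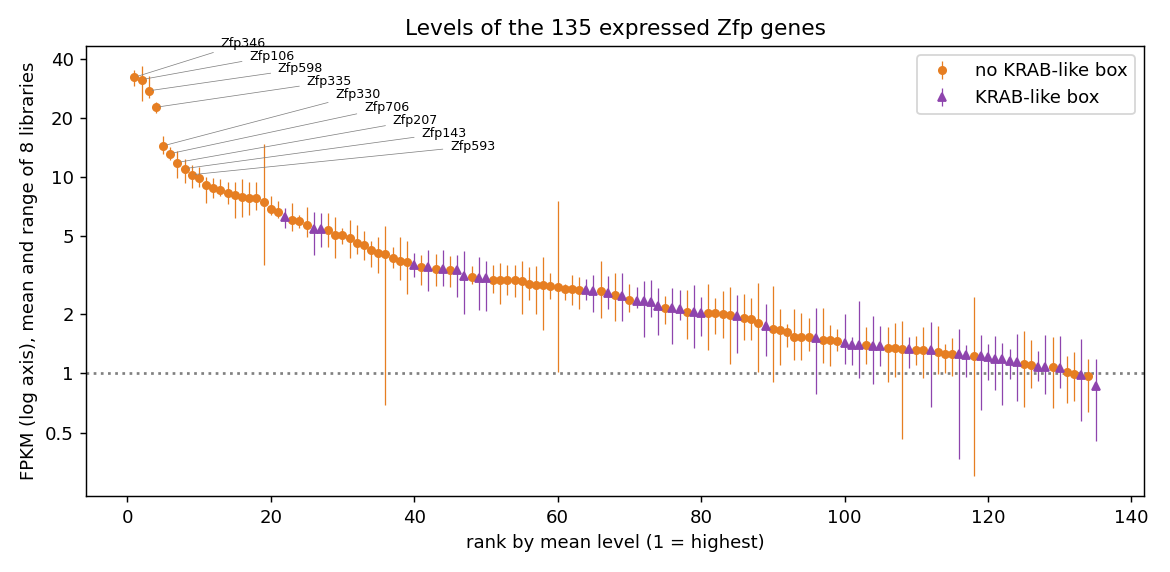
Mean level of each of the 135 genes (points) and the range over the 8 libraries (vertical lines) in FPKM on a log axis, ordered by mean; the dotted line is 1 FPKM. Triangles, the 45 genes with a KRAB-like box, begin at 6.23 FPKM, and the 9 named genes without one lie at 10 FPKM or more.

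The threshold itself cut through a dense part of the range. Just inside it were Zfp84, Zfp930 and Zfp688, whose fourth-highest library held 1.03, 1.04 and 1.06 FPKM, and just outside were Zfp810, Zfp772 and Zfp932 with 0.971, 0.963 and 0.933 FPKM. Zfp84 had 1.15, 1.05, 0.453 and 0.781 FPKM in the TABS libraries, against 0.762, 0.465, 1.03 and 1.18 FPKM in the HA/Mg ones. Zfp688 had 0.8596, 1.55, 0.842 and 1.13 FPKM in the TABS libraries, against 1.06, 0.967, 0.954 and 1.21 FPKM in the HA/Mg ones. Both genes were uncalled and their groups overlapped. Of the 135 genes, 103 reached 1 FPKM in all 8 libraries, and 32 in 4 to 7 of them; among these 32 the threshold was met in more TABS libraries for 7 genes, in more HA/Mg libraries for 22 and in equal numbers for 3. A gene of this kind could enter through the group in which it was high, and 6 of the 19 genes called lower and 1 of the 4 called higher were such genes. They were Zfp689, Zfp930, Zfp946, Zfp61, Zfp397 and Zfp654 among the lower genes and Zfp239 among the higher.

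With TABS, 4 of the 135 genes were higher and 19 were lower than with HA/Mg, by limma on log2(FPKM + 1) with Benjamini-Hochberg adjustment over all 10161 genes tested (adjusted p under 0.05). These were 2.96% and 14.1% of the genes, close to the background of 5.07% of all genes tested called higher and 13.1% called lower, so that the counts are not a result about Zfp genes. In either direction, 23 of 135 were called, against 18.1% of all genes tested, and 45 had an unadjusted p under 0.05. The fitted change was negative for 95 genes and positive for 40. Its median was -0.11 on the log2 scale, against -0.04 for all genes tested. The changes were small: no called gene reached 0.5 in either direction on the log2(FPKM + 1) scale, which understates the change of scarce transcripts. The 4 TABS values lay entirely above the 4 HA/Mg values for 7 genes and entirely below them for 19, where all genes tested gave 8.05% and 15.0%. Among the 23 called genes the groups did not overlap in 20, and overlapped in Zfp110, Zfp131 and Zfp266. Among the 103 genes at 1 FPKM or more in every library, the same fit called 3 higher and 13 lower.

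The split depended on how libraries were scaled. It was 9 higher and 17 lower with median-of-ratios scaling (8.44% and 10.4% of all genes tested), 10 and 16 with quantile normalization (7.93% and 11.7%), and 1 and 20 with FPKM rescaled to equal sums (2.47% and 15.2%).

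**Figure D2:**
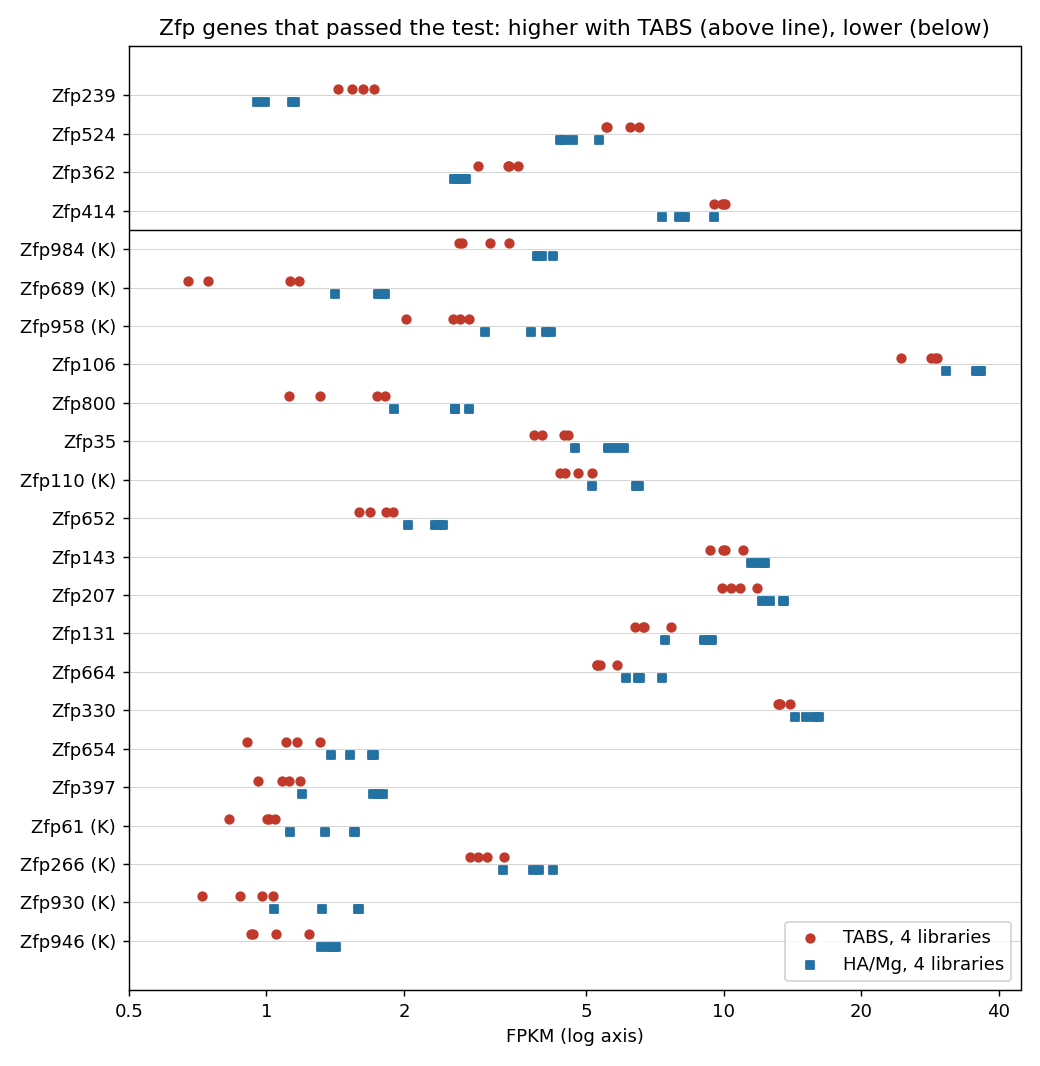
FPKM (log axis) in each TABS library (circles) and HA/Mg library (squares) for the 4 genes called higher with TABS, above the line, and the 19 called lower, below it, each ordered by adjusted p; K marks a KRAB-like box. All 8 genes marked K are in the lower block, and most pairs of groups are separated by a narrow gap.

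The 4 genes higher with TABS were Zfp239, Zfp524, Zfp362 and Zfp414, none of them with a KRAB-like box. Zfp239 (ENSMUSG00000042097, chr6:117862100-117873291, + strand), known as Mok2, a protein that binds DNA and RNA, had 1.62, 1.72, 1.54 and 1.43 FPKM in the TABS libraries, against 1.16, 1.14, 0.995 and 0.952 FPKM in the HA/Mg ones. All 4 TABS libraries lay above all 4 HA/Mg libraries, and the fitted log2 change was 0.32 ± 0.07 (SE; limma adjusted p = 0.0157). Its annotated protein has 7 fingers, 1 of which is printed above. The change stood at 0.42 (adjusted p = 0.0206) after the base composition correction described further on. Zfp239 reached 1 FPKM in all 4 TABS libraries but in 2 of the HA/Mg ones, so it met the entry threshold through the group in which it was high.

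Zfp524 had 6.52, 6.26, 5.54 and 5.56 FPKM in the TABS libraries, against 4.695, 5.33, 4.39 and 4.49 FPKM in the HA/Mg ones, a log2 change of 0.28 ± 0.07 (SE; limma adjusted p = 0.0321). Zfp362, a paralog of the bone-formation regulator Zfp384, had 3.56, 3.38, 3.39 and 2.91 FPKM in the TABS libraries, against 2.57, 2.61, 2.74 and 2.69 FPKM in the HA/Mg ones, a log2 change of 0.24 ± 0.06 (SE; limma adjusted p = 0.0361). Zfp414 had 9.901, 10.1, 10.03 and 9.55 FPKM in the TABS libraries, against 8.002, 9.53, 8.22 and 7.33 FPKM in the HA/Mg ones, a log2 change of 0.24 ± 0.07 (SE; limma adjusted p = 0.0477). In each of these 3 genes every TABS library was above every HA/Mg library, by the smallest margin in Zfp414. Reads of Zfp524 and Zfp414 are uncertain in origin, since 43.6% and 42.0% of the 100-base stretches of their transcripts also occur in transcripts of other genes, and exons of Zfp524 overlap Fiz1. After the base composition correction none of the 3 was called (adjusted p = 0.185, 0.110 and 0.229 for Zfp524, Zfp362 and Zfp414).

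KRAB-like genes were lower or uncalled: 8 of the 45 fell with TABS (17.8%, against 13.1% of all genes tested). None of the 45 rose, where 5.07% of all genes tested did, and 17 had an unadjusted p under 0.05. Their fitted change was negative in 40 of 45, with a median of -0.17. Of the 90 genes without the box, 11 fell (12.2%) and 4 rose (4.44%), close to the shares of all genes tested, with a median of -0.08. No test of the difference between these classes was made. They also differed in base composition, with a median transcript GC content of 43.3% in the KRAB-like class and 51.3% in the other. The lowest of 5 GC classes, described further on, held 26 of the 45 KRAB-like genes, and 30.8% of all its genes fell.

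Zfp689 (ENSMUSG00000048921, chr7:127442136-127449158, - strand) had the largest fold change of the called genes, at 0.675, 0.744, 1.13 and 1.18 FPKM in the TABS libraries, against 1.76, 1.41, 1.82 and 1.796 FPKM in the HA/Mg ones. Every TABS library was below every HA/Mg library, and the mean was 1.82 times higher with HA/Mg; the log2 change was -0.49 ± 0.10 (SE; limma adjusted p = 0.0172). Its transcript has a GC content of 53.4%, above the median of 49.8% for all genes tested. Its change stood at -0.50 (limma adjusted p = 0.0328) after the base composition correction. It reached 1 FPKM in 2 TABS libraries and in all 4 HA/Mg ones, so it too met the threshold through the group in which it was high.

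Zfp984 had 2.67, 3.39, 2.63 and 3.08 FPKM in the TABS libraries, against 3.96, 3.898, 3.997 and 4.24 FPKM in the HA/Mg ones, a log2 change of -0.35 ± 0.07 (SE; limma adjusted p = 0.0168). Zfp958 had 2.56, 2.78, 2.02 and 2.65 FPKM in the TABS libraries, against 4.096, 3.000, 3.79 and 4.195 FPKM in the HA/Mg ones, a log2 change of -0.44 ± 0.10 (SE; limma adjusted p = 0.0223). The groups were apart in both, and both transcripts are rich in A and T (36.5% and 37.9% GC). Transcripts of Zfp984 share 29.9% of their 100-base stretches with other genes and its exons overlap Gm20707, so that part of its reads cannot be assigned with certainty. Zfp110, whose protein (NRIF) binds the neurotrophin receptor p75, had 4.79, 5.15, 4.39 and 4.503 FPKM in the TABS libraries, against 6.54, 5.14, 6.42 and 6.46 FPKM in the HA/Mg ones, a log2 change of -0.32 ± 0.08 (SE; limma adjusted p = 0.0291). There the highest TABS library was level with the lowest HA/Mg library, replicate 6.

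Zfp930, close to the entry threshold, had 0.874, 1.03, 0.725 and 0.9795 FPKM in the TABS libraries, against 1.59, 1.04, 1.32 and 1.58 FPKM in the HA/Mg ones, a log2 change of -0.32 ± 0.09 (SE; limma adjusted p = 0.0439). Every HA/Mg library was above every TABS library, by little in replicate 6. Zfp930 reached 1 FPKM in 1 TABS library and in all 4 HA/Mg ones, so it met the threshold through the group in which it was high. The remaining KRAB-like genes that fell were Zfp61, Zfp266 and Zfp946, with log2 changes of -0.28, -0.26 and -0.22 (limma adjusted p = 0.0408, 0.0420 and 0.0475). Zfp946 reached 1 FPKM in 2 TABS libraries and in all 4 HA/Mg ones, so it too entered through the group in which it was high. Zfp61 had 1.002, 0.828, 1.05 and 1.01 FPKM in the TABS libraries, against 1.34, 1.12, 1.55 and 1.56 FPKM in the HA/Mg ones, with no overlap, and its call was kept after the base composition correction (log2 change -0.31, adjusted p = 0.0396). Zfp809, which silences murine leukaemia retroviruses by binding their primer binding site, had 1.35, 1.17, 1.12 and 1.68 FPKM in the TABS libraries, against 1.51, 1.39, 1.16 and 2.01 FPKM in the HA/Mg ones, with overlapping groups (adjusted p = 0.520). Zfp445, a regulator of imprinted loci, had 5.499, 5.16, 4.02 and 4.59 FPKM in the TABS libraries, against 6.16, 5.24, 6.17 and 6.63 FPKM in the HA/Mg ones, a log2 change of -0.28 ± 0.09 (SE; limma adjusted p = 0.0652). It was not called, and its highest TABS library exceeded its lowest HA/Mg library.

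Zfp106, an RNA-binding protein needed for the upkeep of motor neurons in mice, was the second most abundant member at 28.4, 29.3, 24.4 and 28.96 FPKM in the TABS libraries, against 36.4, 30.7, 36.6 and 35.7 FPKM in the HA/Mg ones. The groups did not overlap, and the log2 change was -0.32 ± 0.07 (SE; limma adjusted p = 0.0229). Zfp346 (JAZ), which binds double-stranded RNA, was the most abundant at 31.2, 31.6, 29.2 and 31.97 FPKM in the TABS libraries, against 35.2, 32.9, 34.2 and 31.2 FPKM in the HA/Mg ones, and its groups overlapped (adjusted p = 0.170). Zfp598, the ubiquitin ligase that marks collided ribosomes, had 32.7, 29.5, 27.5 and 26.1 FPKM in the TABS libraries, against 26.8, 25.4, 25.4 and 26.3 FPKM in the HA/Mg ones and was uncalled (adjusted p = 0.140).

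Zfp593 and Zfp622, whose yeast counterparts act in the maturation of the large ribosomal subunit, were also uncalled. Zfp593 had 10.98, 9.23, 11.5 and 10.3 FPKM in the TABS libraries, against 8.81, 10.4, 9.74 and 11.3 FPKM in the HA/Mg ones, a log2 change of 0.06 ± 0.08 (SE). Zfp622 had 9.74, 8.93, 8.001 and 8.17 FPKM in the TABS libraries, against 8.63, 8.47, 8.19 and 8.23 FPKM in the HA/Mg ones, a log2 change of 0.05 ± 0.06 (SE). The groups overlapped in both. Zfp326, a subunit of a complex that joins transcription to splicing, had 1.17, 1.27, 1.12 and 1.44 FPKM in the TABS libraries, against 1.44, 1.45, 1.504 and 1.71 FPKM in the HA/Mg ones. Its log2 change was -0.17 (adjusted p = 0.113) with the groups barely overlapping. Zfp830 (Omcg1), linked to the processing of messenger RNA precursors, had 1.91, 2.52, 1.99 and 2.34 FPKM in the TABS libraries, against 2.51, 2.41, 3.55 and 3.73 FPKM in the HA/Mg ones. The 2 highest values were HA/Mg replicates 7 and 8, and the gene was uncalled (adjusted p = 0.0842).

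Among regulators that bind DNA without a KRAB box, Zfp143, an activator that binds many promoters, had 10.1, 9.96, 9.35 and 11.1 FPKM in the TABS libraries, against 12.2, 11.5, 11.8 and 12.3 FPKM in the HA/Mg ones. Every TABS library was below every HA/Mg library, and the log2 change was -0.22 ± 0.06 (SE; limma adjusted p = 0.0293). Zfp131, a BTB-domain transcription factor, had 6.39, 7.69, 6.71 and 6.65 FPKM in the TABS libraries, against 9.07, 7.45, 9.29 and 9.44 FPKM in the HA/Mg ones, a log2 change of -0.32 ± 0.08 (SE; limma adjusted p = 0.0309). TABS replicate 6 exceeded HA/Mg replicate 6 there, and no other TABS library reached an HA/Mg one. Zfp35 had 4.48, 4.56, 3.85 and 4.01 FPKM in the TABS libraries, against 5.59, 4.73, 5.82 and 6.07 FPKM in the HA/Mg ones, a log2 change of -0.32 ± 0.08 (SE; limma adjusted p = 0.0277), with no overlap.

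Zfp800 had 1.12, 1.82, 1.74 and 1.31 FPKM in the TABS libraries, against 2.58, 1.899, 2.77 and 2.58 FPKM in the HA/Mg ones, a log2 change of -0.47 ± 0.12 (SE; limma adjusted p = 0.0263). Zfp652, which in human cells represses transcription with CBFA2T3, had 1.69, 1.82, 1.59 and 1.89 FPKM in the TABS libraries, against 2.39, 2.04, 2.33 and 2.43 FPKM in the HA/Mg ones, a log2 change of -0.26 ± 0.07 (SE; limma adjusted p = 0.0291). Zfp397, a SCAN-domain protein, had 1.12, 1.18, 0.958 and 1.08 FPKM in the TABS libraries, against 1.71, 1.19, 1.75 and 1.800 FPKM in the HA/Mg ones, a log2 change of -0.32 ± 0.09 (SE; limma adjusted p = 0.0384). In all 3 the groups were apart, in Zfp397 by a narrow margin at HA/Mg replicate 6. Exons of Zfp652 overlap Phospho1 and Zfp652os, so that its reads are uncertain. Zfp664 and Zfp654 fell as well, with log2 changes of -0.24 and -0.28 (limma adjusted p = 0.0333 and 0.0377).

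The paralogs Zfp148 and Zfp281, which bind GC-rich promoter elements, were uncalled. Zfp148 had 2.95, 2.84, 2.300 and 2.87 FPKM in the TABS libraries, against 3.72, 2.01, 3.71 and 3.17 FPKM in the HA/Mg ones. Zfp281 had 2.31, 2.08, 1.32 and 1.57 FPKM in the TABS libraries, against 2.33, 1.41, 2.42 and 2.87 FPKM in the HA/Mg ones. In both, HA/Mg replicate 6 was the lowest HA/Mg library and the groups overlapped. Zfp24, a SCAN-domain factor, had 2.12, 2.21, 1.49 and 1.76 FPKM in the TABS libraries, against 2.105, 1.78, 2.34 and 2.67 FPKM in the HA/Mg ones. Its groups overlapped and it was uncalled. Zfp64 had 6.88, 6.58, 7.99 and 7.11 FPKM in the TABS libraries, against 6.56, 6.61, 6.66 and 6.41 FPKM in the HA/Mg ones and was uncalled (adjusted p = 0.249). Zfp384 (Nmp4), which restrains bone formation in mice, had 7.53, 6.89, 6.17 and 6.27 FPKM in the TABS libraries, against 6.71, 6.35, 6.54 and 6.39 FPKM in the HA/Mg ones and was uncalled (adjusted p = 0.711). Both spread more widely with TABS than with HA/Mg.

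Zfp217, which works with CtBP corepressors, had 2.597, 3.105, 1.66 and 2.12 FPKM in the TABS libraries, against 3.69, 2.04, 3.41 and 3.92 FPKM in the HA/Mg ones and a log2 change of -0.33 ± 0.17 (SE; limma adjusted p = 0.192). Zfp335, part of a histone methyltransferase complex and mutated in human microcephaly, had 22.5, 22.5, 24.2 and 24.1 FPKM in the TABS libraries, against 22.6, 21.6, 21.1 and 22.5 FPKM in the HA/Mg ones, with overlapping groups. Exons of Zfp335 overlap Pcif1. Zfp609, a partner of the cohesin loader Nipbl, had 8.62, 8.22, 7.81 and 8.01 FPKM in the TABS libraries, against 9.73, 8.37, 9.49 and 9.89 FPKM in the HA/Mg ones and a log2 change of -0.18 ± 0.06 (SE; limma adjusted p = 0.0727). Zfp516, an activator of the brown fat programme, had 6.28, 5.03, 3.88 and 4.58 FPKM in the TABS libraries, against 5.65, 4.16, 5.39 and 5.73 FPKM in the HA/Mg ones and an adjusted p of 0.704. The groups overlapped in all 4 of these genes.

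Zfp410, which activates the chromatin remodeller gene Chd4, had 1.64, 1.62, 1.37 and 1.57 FPKM in the TABS libraries, against 1.79, 1.66, 1.71 and 1.59 FPKM in the HA/Mg ones. Its adjusted p was 0.400, while Chd4 fell, at a mean of 46.4 ± 2.51 FPKM with TABS and 53.6 ± 3.00 FPKM with HA/Mg (SD, n = 4 each; limma adjusted p = 0.0359). Zfp292 had 1.51, 1.26, 0.907 and 1.35 FPKM in the TABS libraries, against 2.29, 1.34, 2.09 and 2.79 FPKM in the HA/Mg ones, a log2 change of -0.46 ± 0.14 (SE; limma adjusted p = 0.0563). It was not called, though its fitted change was larger than that of most called genes. Zfp318, which in B cells sets the choice between IgM and IgD transcripts, had 1.38, 1.54, 1.17 and 1.33 FPKM in the TABS libraries, against 1.61, 1.197, 2.03 and 2.04 FPKM in the HA/Mg ones and an adjusted p of 0.220.

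Zfp207 (BuGZ), which carries Bub3 to the spindle, had 9.92, 11.9, 10.4 and 10.9 FPKM in the TABS libraries, against 13.5, 12.1, 12.6 and 13.5 FPKM in the HA/Mg ones, a log2 change of -0.25 ± 0.06 (SE; limma adjusted p = 0.0298). Zfp330, a nucleolar protein, had 13.3, 14.00, 13.2 and 13.2 FPKM in the TABS libraries, against 15.1, 14.3, 16.2 and 15.8 FPKM in the HA/Mg ones, a log2 change of -0.18 ± 0.05 (SE; limma adjusted p = 0.0377). In both the groups did not overlap, and the change of Zfp330 was 0.01 after the base composition correction. Zfp91, a ubiquitin ligase that activates non-canonical NF-kB signalling, had 7.84, 7.73, 6.15 and 7.48 FPKM in the TABS libraries, against 9.25, 7.99, 9.07 and 9.45 FPKM in the HA/Mg ones and just missed the threshold (log2 change -0.26 ± 0.08 (SE), limma adjusted p = 0.0516) although its groups did not overlap.

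Zfp451, a SUMO ligase in human cells, had 1.302, 1.401, 1.09 and 1.59 FPKM in the TABS libraries, against 1.696, 1.24, 1.72 and 1.76 FPKM in the HA/Mg ones and was uncalled (adjusted p = 0.274). Zfp746 (PARIS), a substrate of parkin, had 1.29, 1.41, 1.300 and 1.51 FPKM in the TABS libraries, against 1.64, 1.37, 1.78 and 1.93 FPKM in the HA/Mg ones and was uncalled (adjusted p = 0.148). The groups overlapped in both. Zfp706 had 12.9, 12.2, 14.2 and 12.8 FPKM in the TABS libraries, against 13.1, 13.6, 12.7 and 13.7 FPKM in the HA/Mg ones, the flattest of the 6 most abundant members, with a log2 change of -0.02 ± 0.06 (SE). Some well-studied family members did not enter: Zfp521, which acts in bone, and Zfp57, which guards imprints, were at 0 in all 8 libraries, and Zfp467 did not exceed 0.0321 FPKM.

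Base composition moved with the change in these genes. Over the 135 genes the Spearman correlation between the log2 change and the GC content of the longest transcript was 0.56, beside 0.54 over 10157 tested genes with a GC value, a description in which all points share the same 8 libraries. When all genes tested were cut into 5 classes of equal size by GC content, the lowest class (28.6% to 44.1% GC) held 48 of the 135 genes and 26 of the 45 KRAB-like ones. In that class 12 of the 48 fell and none rose, beside 30.8% lower and 0.689% higher among all its genes. In the highest class (55.4% to 73.7% GC), 3 of 32 rose and none fell, beside 12.5% higher and 0.935% lower. The 19 genes that fell had a median GC content of 40.1%, and the 4 that rose one of 57.3%.

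After spline fits to length and GC content had been subtracted within each library, 2 genes stayed lower (Zfp689 and Zfp61) and 1 stayed higher (Zfp239), beside 3.78% lower and 2.59% higher of all genes tested. All 3 had met the entry threshold in more libraries of the group in which they were high, Zfp61 in 3 TABS and 4 HA/Mg libraries. Among the 103 genes at 1 FPKM or more in every library, limma called none in either direction after the correction (24 had an unadjusted p under 0.05). The median change of the 135 genes was then -0.02, that of the KRAB-like genes -0.03 and that of the others -0.01. Of the 19 genes that fell, 18 kept a negative sign, and Zfp330 had 0.01. Whether the relation with GC content came from the cells or from library making was not tested. In a bulk library, fewer cells with a transcript and less of it per cell cannot be told apart.

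**Figure D3:**
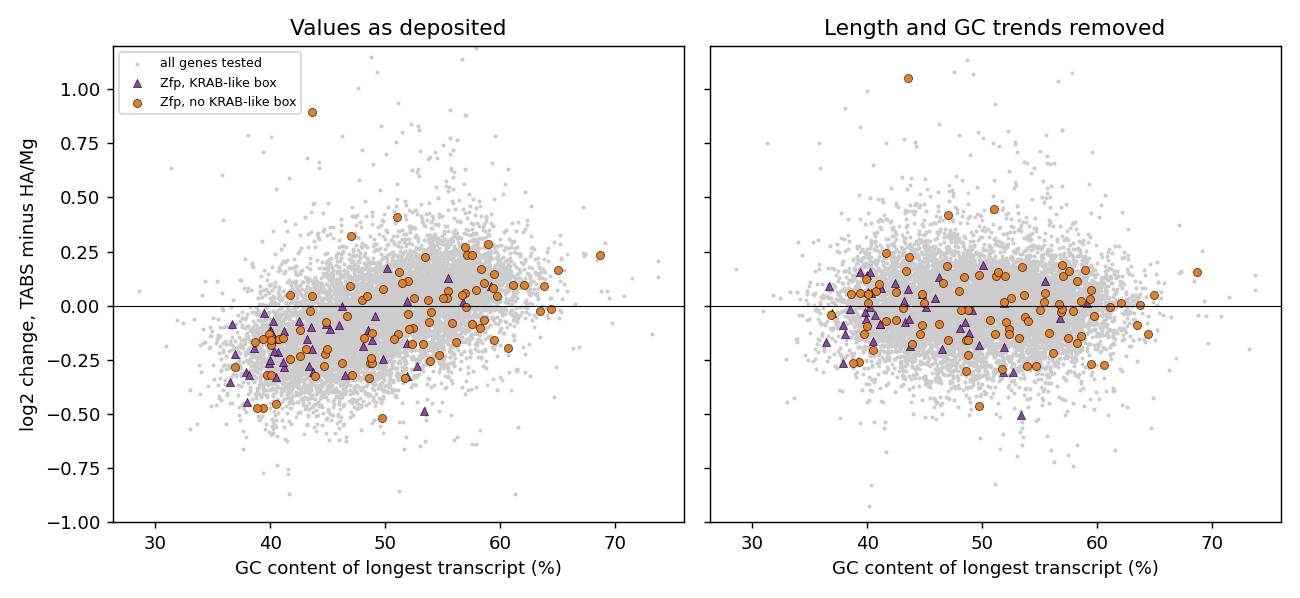
Fitted log2 change (TABS minus HA/Mg) against the GC content of the longest transcript (percent), for values as deposited (left) and with length and GC trends removed (right); grey dots are all genes tested (a few lie outside the axis), triangles the KRAB-like and circles the other Zfp genes. The upward slope on the left is a Spearman correlation of 0.56 over the 135 genes. On the right, where the correction removes such a slope by design, the correlation is -0.03.

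Sums by library were mostly lower with TABS. The levels of the 135 genes summed to 547, 553, 497 and 526 FPKM in the TABS libraries, against 572, 514, 592 and 590 FPKM in the HA/Mg ones. The means were 531 ± 25.3 and 567 ± 36.5 FPKM (SD, n = 4 each), and HA/Mg replicate 6 lay among the TABS libraries. The sums of the 45 KRAB-like genes were 94.2, 98.3, 77.8 and 87.5 FPKM in the TABS libraries, against 109, 89.2, 108 and 116 FPKM in the HA/Mg ones. TABS replicate 7 was the lowest by both sums, and HA/Mg replicate 6 the lowest of its group. Across all genes tested, deviations from the gene mean rose with GC content in the 4 TABS libraries (Spearman 0.24 to 0.44) and fell with it in HA/Mg replicates 5, 7 and 8 (-0.34 to -0.49), but hardly in HA/Mg replicate 6 (-0.10). The removal of this trend, above, takes out any change that follows GC content, whatever its source. The part of the trend in the calls of single genes was therefore not tested.

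**Figure D4:**
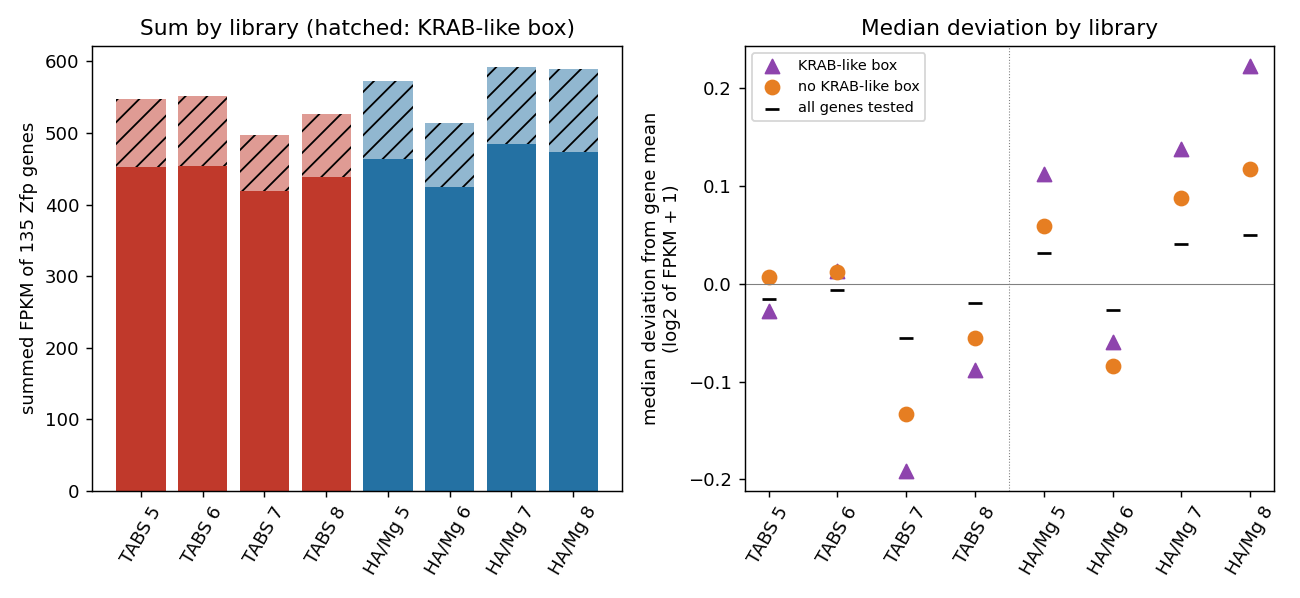
Left, FPKM summed over the 135 genes in each library, with the KRAB-like share hatched; right, the median over genes of the deviation from the gene's mean on the log2(FPKM + 1) scale, for KRAB-like genes, other Zfp genes and all genes tested. HA/Mg replicate 6 sums to 514 FPKM, within the TABS range of 497 to 553 FPKM, and its KRAB-like median lies below 0 while those of the other 3 HA/Mg libraries lie above it.

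The number of genes called depended on single HA/Mg libraries. Replicate 6 was the lowest of the HA/Mg libraries in 18 of the 19 genes that fell. Without replicate 6, 48 genes were lower and 5 higher, beside 24.1% and 8.54% of all genes tested, all 19 were still lower, and 19 of the 45 KRAB-like genes were lower; in the 7 other fits that left out 1 library, 0 to 5 of the 45 were. Without HA/Mg replicate 7, in contrast, no Zfp gene was called in either direction by limma (39 had an unadjusted p under 0.05), beside 3.42% lower and 1.26% higher of all genes tested. Without HA/Mg replicate 5 no gene was lower (3.16% of all genes tested), and without HA/Mg replicate 8 only Zfp984 was (5.02%). Without TABS replicate 5, 6, 7 or 8, the lower genes numbered 5, 10, 5 and 7, beside 6.22%, 8.42%, 6.55% and 8.77% of all genes tested. No called gene kept its call in all 8 fits that left out 1 library; Zfp239 kept it in 7, being lost without HA/Mg replicate 7 (limma adjusted p = 0.0567). Zfp984 kept it in 6 and Zfp689 and Zfp106 in 5. These fits all used the genes that met the threshold over all 8 libraries, and Zfp239 and Zfp689 met it through the group in which they were high.

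The deposited values implied 19900000 to 23700000 fragments per library, so that at 1 FPKM a 2 kb transcript would be covered by 39.8 to 47.5 fragments, and counting alone would give an error of 14.5% to 15.9%. All 8 macrophage markers examined were at 1 FPKM or more in every library (summed 2147 to 2513 FPKM with TABS, 1816 to 2247 FPKM with HA/Mg). T cell and B cell markers were at 0 in every library, and fibroblast and osteoblast, epithelial and endothelial markers were under 1 FPKM throughout.

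Along the chromosomes, 36 of the 135 genes lie on chromosome 7, and several sit in clusters, here genes less than 1000000 bases from the next. The cluster at chr7:29768552-30169750 holds 7 of them (Zfp84, Zfp790, Zfp383, Zfp566, Zfp260, Zfp382 and Zfp146), and none was called. Another 7 lie at chr7:127233061-127885996, where Zfp689 fell and the other 6 were uncalled, with a cluster median of 0.02. At chr17:21450374-22456689 all 5 genes (Zfp51, Zfp53, Zfp52, Zfp948 and Zfp946) are KRAB-like and had negative changes, between -0.25 and -0.03, and Zfp946 was called. Their median GC content is 39.4%. Neighbours did not share a call in any of these 3 clusters, but elsewhere they could. Zfp397 and Zfp35, less than 1000000 bases apart, both fell (limma adjusted p = 0.0384 and 0.0277). Zfp24, next to Zfp35, was uncalled.

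Promoters are shown for Zfp239 and Zfp689, a pair with calls in opposite directions; both met the entry threshold through the group in which they were high, as stated above. The sequences are RefSeq promoters (GRCm38.p6), 250 bases before to 50 after the start, at chr6:117861774-117862073 (+) for Zfp239, 1 of its 2 listed starts, and chr7:127449109-127449408 (-) for Zfp689; capitals mark CCAAT, searched on both strands.
Zfp239 promoter: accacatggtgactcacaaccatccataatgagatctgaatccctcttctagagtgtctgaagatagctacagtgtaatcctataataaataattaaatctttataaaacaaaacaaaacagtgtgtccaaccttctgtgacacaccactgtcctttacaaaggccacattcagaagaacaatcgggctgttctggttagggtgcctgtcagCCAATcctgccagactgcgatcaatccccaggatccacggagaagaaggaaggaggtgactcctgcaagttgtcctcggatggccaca
Zfp689 promoter: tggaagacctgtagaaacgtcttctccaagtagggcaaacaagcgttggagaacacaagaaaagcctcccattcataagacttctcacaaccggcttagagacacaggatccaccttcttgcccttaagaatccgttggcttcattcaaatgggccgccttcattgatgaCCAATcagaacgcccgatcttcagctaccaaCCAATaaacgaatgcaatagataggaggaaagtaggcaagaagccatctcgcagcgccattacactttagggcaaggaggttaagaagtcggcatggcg
The CCAAT pentamer occurs 1 time in the first and 2 times in the second, and 0 times at the other listed start of Zfp239, whose window lies at chr6:117862631-117862930 (+). It occurs in 44.5% of 137 promoters listed for 109 matched Zfp genes and in 59.6% of 47 for the KRAB-like genes. The share is 38.2% of 9419 promoters for all genes tested, and 37.4% of all 32851 promoters of this length. Other motifs were searched as well. For KRAB-like genes and all genes tested, the ETS core (CCGGAA) occurs in 48.9% and 30.8%, and the GC box (GGGCGG) in 44.7% and 64.8%. The TATA box (TATAAA) occurs in 6.38% and 6.59%, and at each listed start of Zfp239 but not in the Zfp689 promoter. These are counts of letters, not of binding sites.

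From a list of 35 KRAB corepressor and heterochromatin genes, 33 were tested. By limma 11 fell (33.3%, against 13.1% of all genes tested) and none rose (16 had an unadjusted p under 0.05), with a median log2 change of -0.16. The list was chosen with earlier results of these data known, so its share is a description. Not every gene on it is known to act with KRAB proteins. Trim28 itself had 60.1, 60.03, 57.7 and 58.9 FPKM in the TABS libraries, against 59.8, 55.9, 58.8 and 62.5 FPKM in the HA/Mg ones, with overlapping groups and a log2 change of -0.00 ± 0.04 (SE). Setdb1 was uncalled, at 8.32 ± 0.952 FPKM with TABS and 10.8 ± 2.02 FPKM with HA/Mg (SD, n = 4 each; limma adjusted p = 0.108). The HP1 gene Cbx3 fell, to 7.52, 7.55, 7.50 and 8.18 FPKM in the TABS libraries, against 10.7, 9.99, 10.8 and 11.1 FPKM in the HA/Mg ones. Its log2 change was -0.42 ± 0.05 (SE; limma adjusted p = 0.00851), and its groups were far apart. The HP1 gene Cbx1 also fell (log2 change -0.30, limma adjusted p = 0.0174), but not after the base composition correction (limma adjusted p = 0.0617). Cbx5, a further HP1 gene, was uncalled (log2 change -0.17, limma adjusted p = 0.121).

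With Cbx3, the 4 largest called changes on that list were those of Mphosph8, a subunit of the HUSH silencing complex (log2 change -0.49), Morc3 (-0.42) and the methyltransferase gene Suv39h2 (-0.36), with limma adjusted p = 0.0252, 0.0289 and 0.0180. The deacetylase gene Hdac2 (-0.36) and the chromatin remodeller gene Atrx (-0.35) were close to Suv39h2, with limma adjusted p = 0.0135 and 0.0415. After the base composition correction 4 of the 33 were lower (12.1%, beside 3.78% of all genes tested): Cbx3, Chd4, Dnmt1 and Lmnb1. Leaving out single libraries moved this count too: it was 5, 8, 5 and 8 without TABS replicate 5, 6, 7 or 8, and 2, 18, 2 and 2 without HA/Mg replicate 5, 6, 7 or 8, beside the shares of all genes tested given above for the same fits. Of the 11 called genes, Cbx3 and Hdac2 kept their calls in all 8 of these fits and the other 9 did not.

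Of 120 genes in other C2H2 families (Zbtb, Zscan, Zkscan, Klf, Prdm and single genes), 60 were tested. Zbtb32 rose (1.67%, beside 5.07% of all genes tested), Klf2, Klf10, Ctcf, Yy1, Prdm15 and Zscan12 fell (6 of 60, beside 13.1%), and 53 were uncalled, with a median log2 change of -0.15 beside -0.11 for the Zfp genes. Klf2, known for holding T cells quiescent, had the largest change of these, at 0.745 ± 0.186 FPKM with TABS and 1.57 ± 0.254 FPKM with HA/Mg (SD, n = 4 each; log2 change -0.56, limma adjusted p = 0.0122). Ctcf, the insulator protein, had 8.49, 8.47, 7.63 and 8.21 FPKM in the TABS libraries, against 11.01, 10.05, 10.7 and 11.3 FPKM in the HA/Mg ones (limma adjusted p = 0.00898). After the base composition correction 4 were lower (Klf2, Klf10, Ctcf and Yy1; 6.67%, beside 3.78% of all genes tested) and none was higher. Leaving out 1 library gave 2 to 24 lower. The 2 of 60 came without HA/Mg replicate 7, beside 3.42% of all genes tested. The 24 of 60 came without HA/Mg replicate 6, where the share of all genes tested was also highest, at 24.1%.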

How the data were processed

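Per the labels' protocols, total RNA with an integrity number above 7 was sequenced after library preparation with the NEBNext Ultra RNA kit. The build was GRCm38 and the tools named were fastp, STAR and DESeq2, per the submitters' processing notes; versions, annotation, use of strand and the program behind the FPKM values: not given in the sources used here. As deposited, the authors' table held FPKM values, scaled to transcript length and library total, so that all changes are relative, and no counts were used here. Only 28.0% to 31.8% of low values were whole fragments (within 0.05 fragment), so no count test was run.

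Groups came from the sample titles. Of 55335 identifiers 55154 matched GENCODE M21, which gave symbols, positions, proteins, transcript length and GC content. Every gene that reached 1 FPKM in 4 or more libraries was tested with limma 3.58.1 (R 4.3.3; mean-variance trend, two-sided, Benjamini-Hochberg) on log2(FPKM + 1), which understates changes of low genes. The correction for base composition removed natural splines (4 degrees of freedom) on length and GC content from each library. A C2H2 finger was a match to cysteines 2 to 4 residues apart, a gap of 12 and histidines 3 to 5 residues apart. A cysteine was also accepted for the last histidine. A KRAB-like box was a sequence pattern searched in every coding transcript, not a curated domain. The fit was tested on simulated data.

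The genes given with a value in every library were the 10 called lower with the smallest p, all called higher, the 6 highest by mean, those with a role listed by name, the 4 largest called changes in each direction with and without a KRAB-like box, and those beside the threshold; Zfp61 was added after its values were seen. The genes and lists were chosen with earlier results of these data known. Alternatives were pseudocounts of 0.1 and 0.5, other filters and scalings, protein-coding genes only, no mean-variance trend, trend removal, a replicate block and leaving out each library.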

Additional observations from a re-analysis of the deposited data

Results flagged for a closer look

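In 6 of the 90 groups of 4 libraries examined for the named genes, 1 library lay far from the other 3 by Dixon's criterion, which sets its gap to the nearest other value against the group's range; chance alone gives about 5% of groups. In 5 of the 6 it was HA/Mg replicate 6, as the lowest of its group: Zfp106 had 30.7 FPKM there, Zfp110 5.14, Zfp451 1.24, Zfp689 1.41 and Zfp397 1.19. In the other 3 HA/Mg libraries Zfp106 had 35.7 to 36.6 FPKM, Zfp110 6.42 to 6.54, Zfp451 1.70 to 1.76, Zfp689 1.76 to 1.82 and Zfp397 1.71 to 1.80. The remaining case was Zfp330 in TABS replicate 6, the highest of its group at 14.0 FPKM against 13.2 to 13.3 in the other 3 TABS libraries.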

How the results depend on the processing

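The 19 genes called lower and 4 called higher became 1 and 1 with no filter on low values, and 2 and 1 with length and GC trends removed. With no filter, 2.57% of all 22906 genes tested were lower and 0.960% higher. With the trends removed, 3.78% of all genes tested were lower and 2.59% higher. Those called higher numbered 9 with median-of-ratios scaling, 10 with quantile normalization and 1 with equal sums (8.44%, 7.93% and 2.47% of all genes tested). Leaving out 1 library gave 0 to 48 lower and 0 to 5 higher, beside 3.16% to 24.1% and 1.06% to 8.54% of all genes tested. The other filters, pseudocounts, protein-coding genes only and no mean-variance trend gave 15 to 21 lower and 3 to 5 higher. Of all genes tested, these settings called 11.4% to 14.3% lower and 4.29% to 5.67% higher. The median change stayed negative throughout, at -0.18 to -0.02; that of all genes tested was 0.01 with median-of-ratios scaling and -0.08 with equal sums.

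The values showed no pairing of the libraries by replicate number: the correlations of same-numbered deviations were 0.01, -0.27, -0.16 and 0.13, and 1 of 8 libraries correlated best with its own number. Whether same-numbered libraries shared a culture or a preparation cannot be told from these correlations. With the replicate block, limma called 0 Zfp genes lower and 0 higher (smallest adjusted p 0.0589, 40 genes at an unadjusted p under 0.05). It also called 0 of all 10161 genes tested. With the block and the trends removed, limma likewise called 0 and 0 Zfp genes (smallest adjusted p 0.0898), and 0 of all 10157 genes tested.

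Signs turned with the trends removed, with or without the block, for Zfp330 (0.013), Zfp706 (0.158), Zfp148 (0.122), Zfp326 (0.0524), Zfp410 (0.0525), Zfp451 (0.102), Zfp593 (-0.0303), Zfp24 (0.0687), Zfp318 (0.0107) and Zfp84 (0.131). They also turned with median-of-ratios scaling for Zfp706 (0.026) and Zfp84 (0.0235), with quantile normalization for Zfp706 (0.0289), Zfp516 (0.0070) and Zfp84 (0.0153), and with equal sums for Zfp384 (-0.0061) and Zfp688 (-0.0021). Leaving out 1 library turned the sign of changes near 0, with ranges of -0.0634 to 0.0047 for Zfp706, -0.0119 to 0.0719 for Zfp384, -0.1783 to 0.0140 for Zfp516, -0.0026 to 0.0822 for Zfp622, -0.1109 to 0.1117 for Zfp84 and -0.0756 to 0.0813 for Zfp688. The causes were not tested.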

Other observations

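Some of the largest fitted changes among the 135 genes were uncalled and came from uneven replicates; these genes were chosen after their values were seen. Zfp422 had 5.34, 4.52, 5.16 and 5.63 FPKM in the TABS libraries, against 0.945, 4.73, 5.35 and 0.691 FPKM in the HA/Mg ones, so that 2 HA/Mg libraries lay within or near the TABS range and the other 2 far below it (log2 change 0.89 ± 0.41 (SE), limma adjusted p = 0.146). Zfp180 had 4.06, 1.02, 1.38 and 1.54 FPKM in the TABS libraries, against 2.22, 2.15, 7.55 and 2.01 FPKM in the HA/Mg ones, with 1 high library in each group. Zfp62 had 0.325, 1.68, 0.966 and 0.391 FPKM in the TABS libraries, against 1.76, 0.301, 1.90 and 2.46 FPKM in the HA/Mg ones. The counting error given above is for 1 FPKM, and some of these values lie below that level. The cause of these steps within a group was not tested.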
